A study of Mus musculus with 6 samples.

Results

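The 10 genes described here encode the core of the basement membrane, the thin sheet of matrix under vessel walls, around muscle fibres and around fat cells. They were chosen by gene symbol alone: the collagen IV chain genes Col4a1 and Col4a2, the laminin chain genes Lama2, Lama4, Lamb1, Lamb2 and Lamc1, the nidogen genes Nid1 and Nid2, and Hspg2, which encodes perlecan. The platform annotation gave them 19 of the 45281 probes of an Illumina bead array. All 10 genes were measurable, through 14 probes detected (detection p under 0.05) on at least 3 of the 6 arrays; 4 probes were detected on no array and 1 on a single array.

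The samples were total RNA of primary calvaria, the skull roof, from FVB/N mice at postnatal day 3. The TG group was 3 arrays from mice overexpressing miR-34c (a gain of function of this microRNA), and the WT group was 3 arrays from wild-type mice of the same strain and age, which served as the control. The comparison asks which calvarial transcripts differ when miR-34c is raised; microRNAs lower messenger RNAs to which they pair. The labels name no promoter for the transgene, no line, no sex and no pooling. They call the arrays biological replicates, and beyond that name p-values here measure only the spread between these arrays.

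In a basement membrane, laminin forms one network and collagen IV another. A laminin is a trimer of an alpha, a beta and a gamma chain; collagen IV of most tissues is a trimer of the Col4a1 and Col4a2 products; nidogens and perlecan link both networks. The alpha chain differs between tissues: Lama2 encodes the chain of muscle fibres and of Schwann cells, and Lama4 that of vessels and fat.

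Col4a1 and Col4a2 lie head to head and are known to share a promoter region. The stretch around the annotated start of Col4a2 is shown because both genes start in it or beside it, so that their values can be read as those of a pair. It lies at chr8:11312783-11312812 on the plus strand of build GRCm38.p6, from RefSeq, and the capitals mark the motif CCCTCCCC.

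Col4a2 start: ggcgctgccCCCTCCCCtcggcagtgcgcg

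In RefSeq, the start of Col4a2 on the plus strand is 11312805 and that of Col4a1 on the minus strand is 11312826, so the annotated transcripts overlap at their first 22 bases. RefSeq's windows of 300 bases, 250 of them before a start, were at hand for 7 of the 10 genes, and on either strand 3 of the 7 (Col4a1, Col4a2 and Nid1) held the motif, against 10.8% of 32851 such windows. The marked site lies in the 78 bases that the windows of Col4a1 and Col4a2 share. It thus counts for both genes, and their matches are not independent. The stretch shown was cut so as to hold the motif, and the 3 of 7 was not tested against the 10.8%.

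Median intensity per array was 127.1 to 131.6 in TG and 125.1 to 132.6 in WT, and 20691 to 21412 probes were detected per array in TG against 19680 to 20967 in WT. Of the bone-forming cell markers, 9 of 10 were measurable, among them Col1a1, Ibsp and Bglap. The array has no probe named for miR-34c, so its level was not checked. The sex-linked genes divided the TG group: Xist had a normalised log2 intensity of 4.70 on TG replicate 1, 9.17 on TG replicate 2 and 9.34 on TG replicate 3, against 4.49 to 5.12 over the 3 WT arrays. Kdm5d, on the Y chromosome, had 7.17, 4.69 and 4.43 on TG replicates 1 to 3, against 6.99 to 7.36 on the WT arrays. Uty, also Y-linked, had 5.36, 5.14 and 5.14 on TG replicates 1 to 3, against 5.73 to 6.07 on the WT arrays. On Uty, TG replicate 1 thus lay below every WT array. High Xist occurred only on TG arrays, so its part in a group difference can be told apart only through TG replicate 1. Values from a fit that adjusts for the averaged Kdm5d and Uty signal (the Y-linked covariate) are given where they turn a sign or move the value of a member or named list gene by over 1.5 times. In that fit the standard errors of the tested member probes were 0.18 to 0.46, against 0.12 to 0.30 without the covariate, so its values are less precise.

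No basement membrane probe was called different between TG and WT calvaria, and neither was any other probe tested. With limma, 0 of the 14 member probes had an adjusted p under 0.05, where 0% of the 20632 probes tested did. One member probe, of Lama4, had an unadjusted p under 0.05, and over all probes 3.44% did. The 3 TG values were clear of the 3 WT values for 0 of the 14 probes, while the groups did not overlap for 7.56% of all probes (3.63% higher in TG and 3.93% lower in TG). The log2 fold changes (TG minus WT throughout) ran between -0.13 for Lama2 and 0.42 for Lama4, with standard errors (SE) of 0.12 to 0.30. The 95% interval lay within a 1.5-fold change either way for 11 of the 14 probes, 78.6%, and for 74.4% of all probes tested. The 3 probes whose interval reached past 1.5-fold were those of Lama2, the brightest of Lama4 and the second of Nid1.

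By the brightest tested probe of each gene, 8 of the 10 genes had positive and 2 negative log2 fold changes, with a median of 0.12. Over the 14 probes 12 were positive, against 50.1% of all probes tested. All probes were read on the same arrays and 4 genes had several tested probes, so these signs are not independent. The 12 of 14 was not tested against the 50.1%. Of all 11204 genes tested, 49.5% were positive, and the median was -0.0014. The mean of the 10 genes, each centred on its own average, was -0.0050, 0.13 and 0.03 on TG replicates 1 to 3, against -0.07, 0.03 and -0.12 on WT replicates 1 to 3. TG replicate 1 lay below WT replicate 2, so the groups overlapped on this mean too. The plot of values by array shows the group differences beside the spread within the groups.

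**Figure D1:**
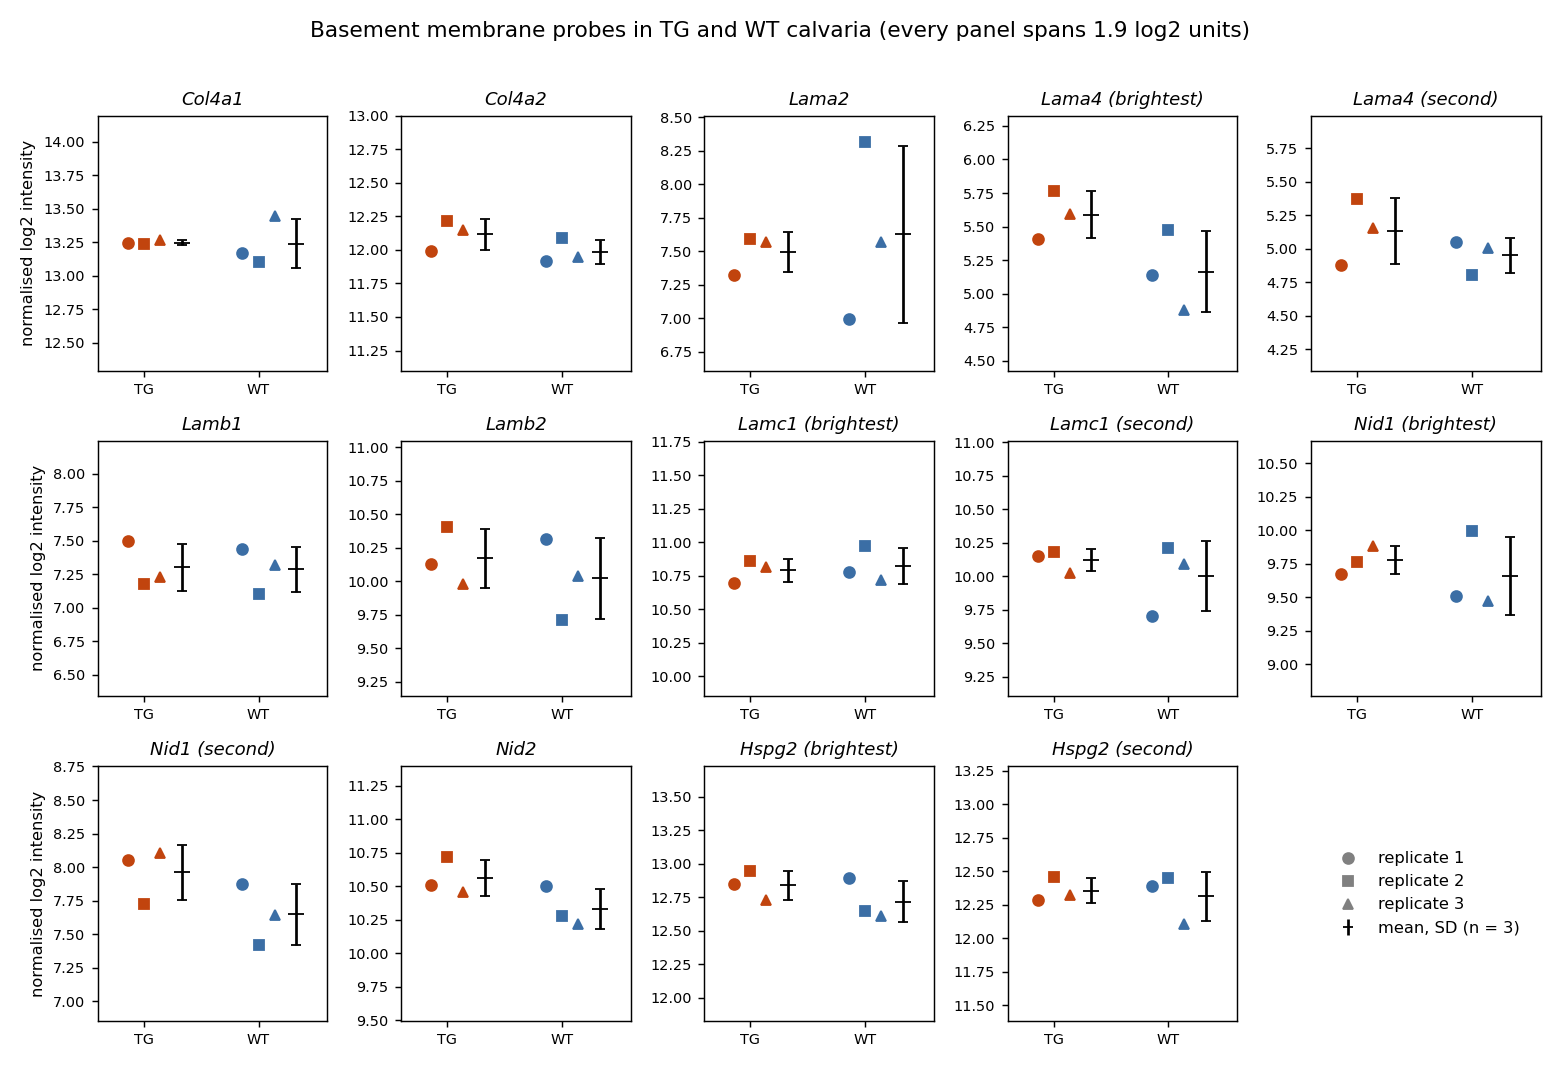
Normalised log2 intensity (vertical axis, every panel spanning the same range) of the 14 tested basement membrane probes on the 3 TG arrays (left in each panel) and the 3 WT arrays (right), with the mean and SD of each group (n = 3). The groups overlap in all 14 panels, and Lama2 has the widest spread, with WT replicate 2 at 8.31 and WT replicate 1 at 6.995.

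Collagen IV, the network-forming collagen of every basement membrane, was near equal between the groups in its alpha 1 chain gene. Col4a1 had a normalised log2 intensity of 13.24, 13.24 and 13.26 on TG replicates 1 to 3, against 13.17, 13.10 and 13.45 on WT replicates 1 to 3. The TG arrays lay close together and inside the WT range. The log2 fold change was 0.0069 ± 0.13 (SE; 95% interval -0.29 to 0.30), and its sign turned under several settings. Over the 6 arrays, 81.4% of tested probes had a larger SD than the 0.12 of Col4a1.

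Col4a2, the gene of the alpha 2 chain, had 11.99, 12.22 and 12.15 on TG replicates 1 to 3, against 11.92, 12.09 and 11.95 on WT replicates 1 to 3. The 2 highest arrays were TG arrays, but TG replicate 1 lay below WT replicate 2. Its log2 fold change was 0.13 ± 0.12 (SE; 95% interval -0.15 to 0.41), and with the Y-linked covariate it was -0.036. Without TG replicate 2 it was 0.08. The head-to-head pair did not have the same order of arrays: Col4a1 was highest on WT replicate 3, where Col4a2 had its second lowest value, and WT replicate 2 was lowest for Col4a1 while only 2 TG arrays lay above it for Col4a2. The SD over the 6 arrays was 0.12 for either gene.

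Lama2, encoding the laminin alpha chain of muscle fibres, was the most variable member. It had 7.33, 7.59 and 7.57 on TG replicates 1 to 3, against 6.995, 8.31 and 7.57 on WT replicates 1 to 3. The highest and the lowest array were both WT arrays, so the TG values lay inside the WT range. Only 4.45% of tested probes had a larger SD over the 6 arrays than the 0.43 of Lama2. Between the groups the log2 fold change was -0.13 ± 0.30 (SE; 95% interval -0.81 to 0.55). Without WT replicate 2 it was 0.22, and with the Y-linked covariate -0.52 ± 0.46 (SE). The other 2 Lama2 probes were detected on no array and were not tested.

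Skeletal muscle markers varied between arrays in much the same order as Lama2. Of 15 markers 14 were measured, all 14 with negative log2 fold changes (median -0.37, 0 past the threshold). Over all genes tested 49.5% were positive. Each measured muscle marker was lowest on TG replicate 1 and highest on WT replicate 2, so these signs are not independent. The summed intensity of the markers was 48399 to 146897 in TG against 81963 to 203707 in WT. Their mean centred log2 value was -1.40, 0.60 and 0.22 on TG replicates 1 to 3, against -0.44, 1.01 and 0.02 on WT replicates 1 to 3. WT replicate 2 was highest and TG replicate 1 and WT replicate 1 were the 2 lowest, both for this list and for Lama2. Desmin (Des), the intermediate filament gene of muscle, had 9.14 on TG replicate 1 and 12.04 on WT replicate 2. The part of muscle content in the Lama2 values was not tested, and in whole tissue fewer cells of a type and less RNA per cell cannot be told apart.

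Lama4, encoding the laminin alpha chain of vessels and fat, had the largest positive value, on a dim probe. The brightest of its 5 probes had 5.41, 5.76 and 5.59 on TG replicates 1 to 3, against 5.14, 5.48 and 4.87 on WT replicates 1 to 3. TG replicates 2 and 3 lay above all WT arrays and TG replicate 1 just below WT replicate 2. The log2 fold change was 0.42 ± 0.18 (SE; 95% interval 0.02 to 0.83; limma, unadjusted p = 0.0432, adjusted p = 0.9997). The probe was detected on 3 TG and 2 WT arrays. Its value depended on the background step: it was 0.13 without background correction and 0.08 in the log2 values deposited by the authors. With the Y-linked covariate it was 0.20 (limma, unadjusted p = 0.484), and without WT replicate 3, its lowest array, 0.28 (limma, unadjusted p = 0.148).

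A second Lama4 probe, detected on 2 arrays of each group, had 4.88, 5.37 and 5.15 on TG replicates 1 to 3, against 5.05, 4.80 and 5.00 on WT replicates 1 to 3. TG replicate 1 lay within the WT range and the other TG arrays above it. Its log2 fold change was 0.18 ± 0.16 (SE), -0.08 with the Y-linked covariate and 0.06 without TG replicate 2. The 3 remaining Lama4 probes were detected on 1 array at most and were not tested, so Lama4 was near the detection limit on every probe.

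Neither beta chain gene passed the test. Lamb1, the beta chain that joins Lama2 or Lama4 in many laminins, had 7.50, 7.18 and 7.23 on TG replicates 1 to 3, against 7.44, 7.11 and 7.32 on WT replicates 1 to 3. Replicate 1 was highest and replicate 2 lowest in either group, and the group means were 7.30 ± 0.17 in TG and 7.29 ± 0.17 in WT (SD, n = 3). This gave a log2 fold change of 0.01 ± 0.14 (SE), and 0.29 with the Y-linked covariate.

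Lamb2, the beta chain of the neuromuscular junction and of the kidney filter, had 10.13, 10.41 and 9.98 on TG replicates 1 to 3, against 10.32, 9.71 and 10.04 on WT replicates 1 to 3. WT replicate 2 was lowest, and without it the log2 fold change was -0.0063 in place of 0.15 ± 0.18 (SE; 95% interval -0.28 to 0.57). Without TG replicate 2, the highest array, it was 0.03. On WT replicate 2 Lamb2 and Lamb1 were both at their lowest, while Lama2 and Lamc1 were at their highest.

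Lamc1, the gamma chain common to most laminins, had 10.70, 10.86 and 10.81 on TG replicates 1 to 3, against 10.78, 10.97 and 10.72 on WT replicates 1 to 3. TG replicate 1 was lowest and WT replicate 2 highest, as they were for the muscle markers. The log2 fold change was -0.03 ± 0.12 (SE; 95% interval -0.32 to 0.25), 0.0434 without WT replicate 2 and -0.16 with the Y-linked covariate. Over the 6 arrays 87.2% of tested probes had a larger SD than this Lamc1 probe. Its second probe, with 10.15, 10.18 and 10.02 in TG against 9.71, 10.21 and 10.09 in WT, had 0.12 ± 0.15 (SE). Without WT replicate 1, its lowest array, that value was -0.03.

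Nid1 encodes nidogen-1, the linker between laminin and collagen IV, and its probes did not follow each other. The brightest probe had 9.68, 9.77 and 9.88 on TG replicates 1 to 3, against 9.51, 9.99 and 9.47 on WT replicates 1 to 3. On the second probe the values were 8.05, 7.72 and 8.10 on TG replicates 1 to 3, against 7.88, 7.42 and 7.65 on WT replicates 1 to 3. WT replicate 2 was the highest array on the brightest probe and the lowest on the second. The log2 fold changes were 0.12 ± 0.16 and 0.31 ± 0.16 (SE), the first -0.06 with the Y-linked covariate and the second 0.47. Leaving out 1 array put the brightest probe between 0.026 (without WT replicate 3) and 0.28 (without WT replicate 2), and the second probe was 0.20 without WT replicate 2.

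Nid2, encoding nidogen-2, had 10.51, 10.72 and 10.46 on TG replicates 1 to 3, against 10.50, 10.28 and 10.22 on WT replicates 1 to 3. Only WT replicate 1 lay among the TG arrays, which otherwise were all higher. The log2 fold change was 0.23 ± 0.13 (SE; 95% interval -0.08 to 0.54; limma, unadjusted p = 0.121, adjusted p = 0.9997), or 1.17-fold. It stayed between 0.15 and 0.32 on leaving out any 1 array and between 0.21 and 0.25 under the other settings run, the Y-linked covariate included.

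Hspg2 encodes perlecan, the heparan sulphate proteoglycan of basement membranes and of cartilage. It had 12.85, 12.94 and 12.73 on TG replicates 1 to 3, against 12.89, 12.64 and 12.61 on WT replicates 1 to 3. WT replicate 1 lay inside the TG range and the other WT arrays below it. The log2 fold change was 0.12 ± 0.13 (SE; 95% interval -0.18 to 0.42), 0.19 with the Y-linked covariate and 0.07 without either TG replicate 2 or WT replicate 3. The second Hspg2 probe had 12.29, 12.46 and 12.32 in TG against 12.39, 12.45 and 12.11 in WT, a log2 fold change of 0.04 ± 0.13 (SE) that was -0.02 with the Y-linked covariate. Chondrocyte markers, of which 9 of 10 were measured and 8 were positive, had mean centred values of -0.41, 1.02 and 0.23 on the TG arrays against 0.05, -0.07 and -0.81 on the WT arrays. Among them Col10a1 had the widest range, from 4.72 on WT replicate 1 to 11.35 on TG replicate 2. It was detected on 2 TG arrays and 1 WT array, and it weighs on this mean. WT replicate 3 was lowest and TG replicate 2 highest for these markers, for Hspg2, for Nid2 and for the brightest Lama4 probe. Their part in these values was not tested.

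**Figure D2:**
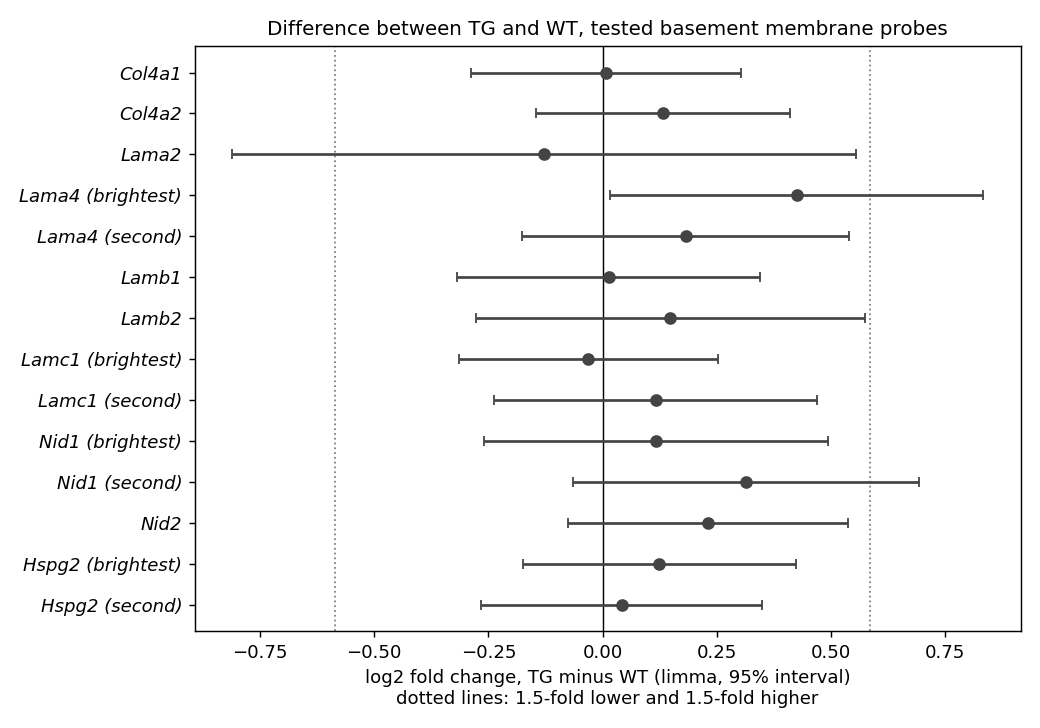
Log2 fold change, TG minus WT, of the 14 tested probes with 95% intervals from limma. All intervals but that of the brightest Lama4 probe (0.02 to 0.83) span 0, and 11 of 14 lie inside the dotted lines at a 1.5-fold change.

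Markers of other cells that make basement membranes were summed by array in the same way. Of 16 endothelial markers 15 were measured, 5 of them higher and 10 lower by sign alone, with a median of -0.02 and a summed intensity of 12319 to 14864 in TG against 12585 to 14725 in WT. Of 11 pericyte and smooth muscle markers 10 were measured, 3 with positive and 7 with negative values, and sums of 12421 to 17638 in TG and 14958 to 16040 in WT. Of 10 adipocyte markers 4 were measured (Adipoq, Plin4, Lpl and Pparg), all with negative values, and their sum was 1541 to 2438 in TG against 1880 to 3002 in WT; Plin1, Fabp4, Cidec, Retn and Lep had probes but were below the filter. Adipocyte markers were highest on WT replicate 2, at a mean centred value of 0.76, as were Lama2, Lamc1 and the brightest Nid1 probe. The second Nid1 probe was lowest on that array. Of Schwann cell and nerve markers 3 of 8 were measured (median 0.16), and of epidermal markers 2 of 8 (median 0.01). In limma 0 markers of these 5 lists passed the threshold. An unadjusted p under 0.05 was found for 1 endothelial and 1 pericyte or smooth muscle marker, against 3.44% of all probes tested. The part of these cell types in the members' values was not tested.

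**Figure D3:**
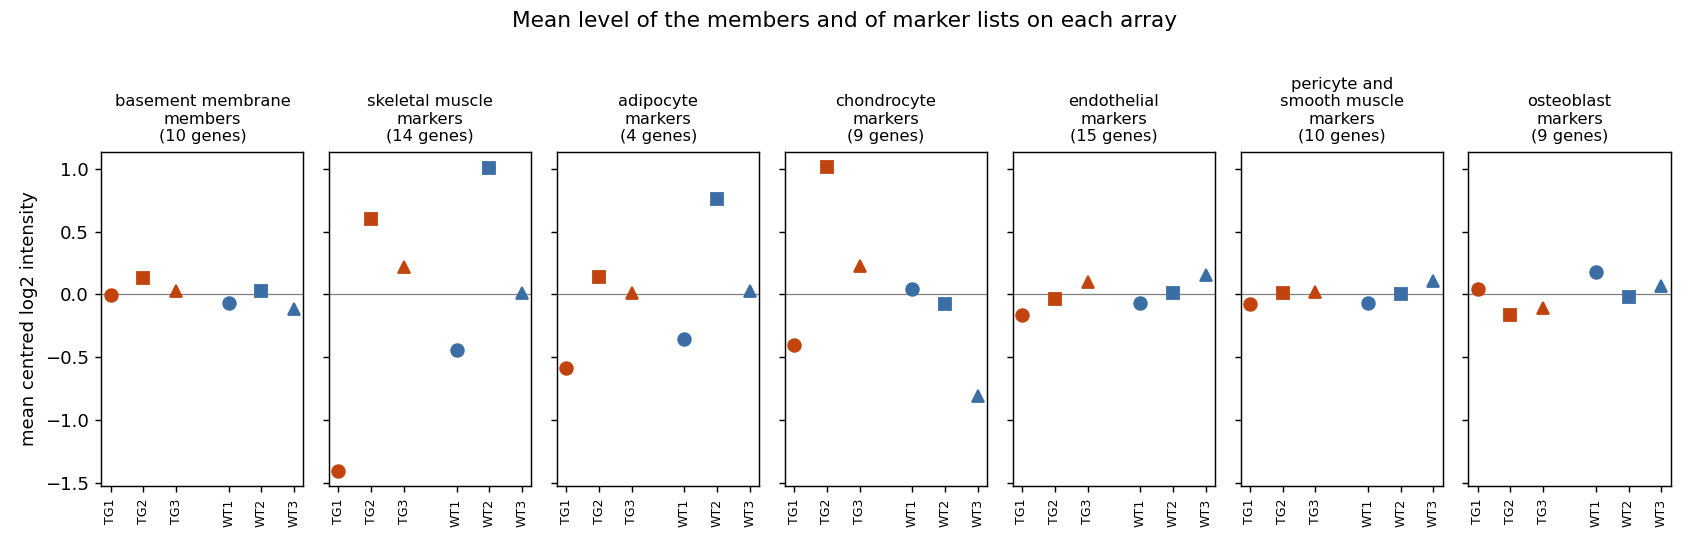
Mean of centred normalised log2 intensity on each array for the 10 basement membrane genes and 6 lists of cell type markers, the 3 TG arrays left of the 3 WT arrays in each panel. Muscle markers range from -1.40 on TG replicate 1 to 1.01 on WT replicate 2, while the basement membrane genes stay between -0.12 and 0.13.

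The arrays on which single members peaked were counted on normalised values, and the same count was not made over all genes tested. By the brightest probe, TG replicate 2 was the highest array for 5 of the 10 genes (Col4a2, Lama4, Lamb2, Nid2 and Hspg2) and the lowest for none, and WT replicate 2 was the highest for 3 and the lowest for 3. WT replicate 3 was the lowest array for 4 genes. In the intensities before normalisation, Nid2 also peaked on TG replicate 2 (1668.3). Col4a2 and the brightest Lama4 probe peaked on TG replicate 3 (4875.5 and 158.5), and Lamb2 and Hspg2 on WT replicate 1 (1380.7 and 7853.5). Leaving out TG replicate 2 moved the median of the 10 genes to 0.07, and leaving out TG replicate 1 moved it to 0.14.

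Other genes of basement membranes, their receptors and their assembly also gave 0 members past the threshold in limma. Of them 0 had an unadjusted p under 0.05, against 3.44% of all probes tested. Of 24 further components 17 were measured, 8 positive and 9 negative with a median of -0.02. Smoc1, a secreted calcium-binding matrix protein gene, had 8.74, 9.20 and 9.76 on TG replicates 1 to 3, against 7.19, 9.05 and 8.52 on WT replicates 1 to 3. WT replicate 1 stood far below the rest, and the log2 fold change was 0.98 ± 0.45 (SE), 0.45 without that array and 0.07 with the Y-linked covariate. The other Smoc1 probe, a dim one, had 0.29. Lamc3, a laminin gamma chain gene, had -0.38 ± 0.19 on a dim probe, and -0.62 with the Y-linked covariate. Without background correction Lamc3 was -0.13, and in the log2 values deposited by the authors -0.08. Agrn, encoding the proteoglycan agrin, had -0.17 ± 0.12 with all TG arrays (11.99 to 12.15) below the WT arrays (12.18 to 12.36), and -0.26 with the Y-linked covariate. It was the 1 gene of the 17 whose groups did not overlap, against 7.56% of all probes (3.93% lower in TG). Tinagl1 had 0.26 ± 0.19 and its other probe 0.07, and with the Y-linked covariate the first was 0.39. That first probe had 0.11 without background correction and 0.08 in the authors' log2 values. The collagen IV genes Col4a3, Col4a4 and Col4a6 had probes but were below the filter.

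Receptors for laminin and collagen IV had 7 positive and 5 negative values among 12 of 13 measured, with a median of 0.04. The laminin-binding integrin genes Itga6 and Itga7 had 0.35 ± 0.20 and -0.17 ± 0.27 (SE), their partner Itgb1 had -0.15 ± 0.12, and the syndecan gene Sdc4 had 0.26 ± 0.16. The other Itga6 probe had 0.13, and Itga6 was 0.12 without WT replicate 3, its lowest array. Its probe was dim and detected on 3 TG and 2 WT arrays. The Itga6 value was 0.11 without background correction and 0.07 in the log2 values deposited by the authors. Sdc4 was 0.11 without TG replicate 2, its highest array, and Itgb1 was -0.08 with the Y-linked covariate. Itga7, the integrin chain of muscle fibres, was highest on WT replicate 2 at 6.91 and lowest on TG replicate 1 at 5.77. Its log2 fold change was 0.09 without WT replicate 2 and -0.83 ± 0.31 (SE) with the Y-linked covariate. Genes of collagen IV and laminin assembly, modification and turnover had 7 positive and 8 negative values among 15 of 16 measured, with a median of -0.0067. Here Plod2, a lysyl hydroxylase gene, had 0.32 ± 0.16 (its other probes 0.18 and -0.28), the gelatinase gene Mmp9 had -0.14 ± 0.16, Plod1 had -0.06 ± 0.20 and the protease gene Adamts1 had 0.06 ± 0.20. Plod2 was the 1 gene of the 15 whose groups did not overlap (10.30 to 10.74 in TG, against 9.97 to 10.22 in WT). Over all probes the groups did not overlap for 7.56%, and for 3.63% with the TG values higher. With the mean of its probes Plod2 was 0.07 ± 0.14 (SE), and without TG replicate 1, its highest array, 0.18. With the Y-linked covariate Plod2 was 0.67 ± 0.20 (SE, limma, unadjusted p = 0.0102). In that fit 1161 probes had an unadjusted p under 0.05 and 0 passed after adjustment. With this covariate Mmp9 was -0.36, Plod1 0.10 and Adamts1 0.16, and without TG replicate 1 Mmp9 was -0.04. Pxdn, encoding peroxidasin, which cross-links collagen IV, had -0.0099 and the collagen chaperone gene Serpinh1 had -0.01.

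Genes with the most similar pattern were sought over the 6 arrays by Pearson's r, as a description. Among 11194 other genes 55 had r above 0.9 with the mean of the 10 members, 0.491% of them. The closest were Ermard (0.996), Atp5md (0.983), Cops7a (0.980), Tigd4 (0.978) and Ptx3 (0.972). For single members the closest pairs were Sox4 and Zcchc17 for Col4a1, Syce1l and Lims2 for Col4a2, Vdac1 and Fxr1 for Lama2, Cops7a and Ptx3 for Lama4, and Wnt5b and Tubg1 for Lamb1. They were Nup214 and Jmjd8 for Lamb2, Acacb and Prrg1 for Lamc1, Rarb and Lyve1 for Nid1, Septin5 and Col11a2 for Nid2, and Nsun3 and Tctn2 for Hspg2, with r between 0.984 and 0.999. All these points come from the same 6 arrays, and the genes were picked as the closest of the 11194. Lyve1, a lymphatic vessel and macrophage receptor gene, had 6.96, 7.46 and 7.85 on TG replicates 1 to 3, against 6.35, 8.06 and 6.42 on WT replicates 1 to 3. This was the order of arrays of the brightest Nid1 probe but for WT replicates 1 and 3.

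Of the 14 tested probes, 4 kept their sign, all positive, under every alternative that gave a value for them. These were Nid2, the brightest Lama4 and Hspg2 probes and the second Nid1 probe. The filter for detection on all 6 arrays left out the brightest Lama4 probe, which was detected on 5. Averaging a gene's probes gave the second Nid1 probe no value of its own. All alternatives reuse the same arrays. With the Y-linked covariate 5 of the 14 turned, and on leaving out single arrays 12 values turned. The 5 that turned with the covariate had values of -0.08 to -0.01 with SE of 0.18 to 0.26, so each lay within 1 SE of 0.

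**Figure D4:**
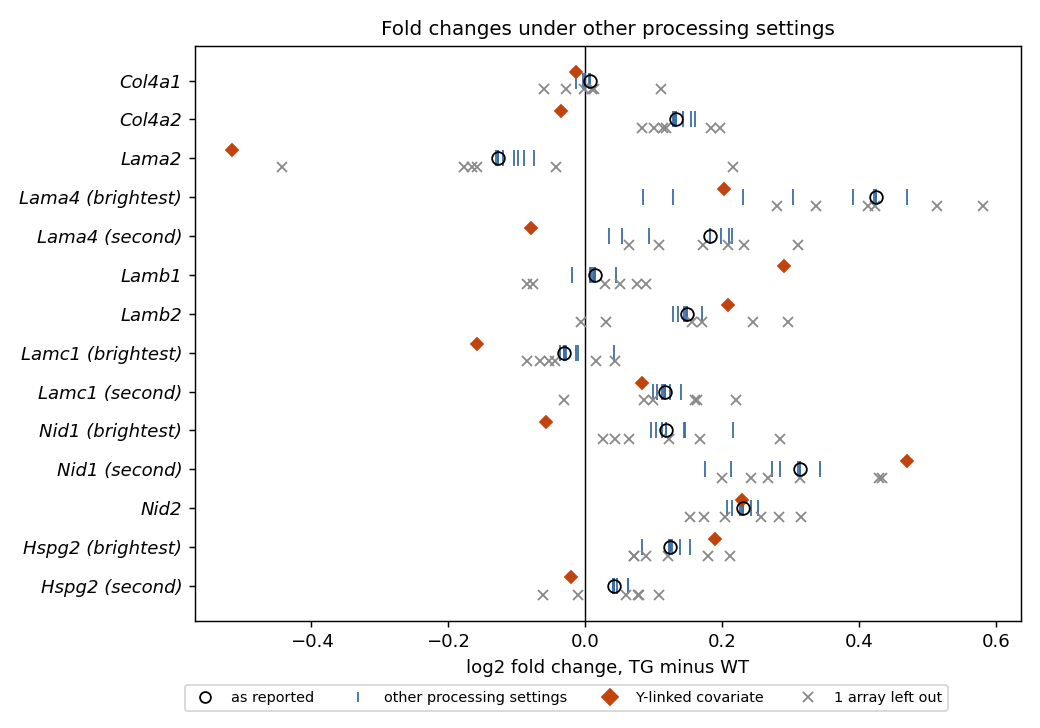
Log2 fold change of the 14 tested probes as reported (open circles), under other processing settings (blue bars), with the Y-linked covariate (red diamonds) and with 1 array left out (grey crosses). Lama2 spans -0.52 to 0.22 and Nid2 0.15 to 0.32.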

How the data were processed

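Total RNA of primary calvaria was measured on 6 Illumina bead arrays (3 TG, 3 WT). The authors deposited a table of linear intensities, one per probe and array, with background not subtracted. Beside each intensity the deposited table gives a detection p-value. Below the probes it held 974 control rows; the last 936 were taken as negative controls, since recomputing the deposited detection p-values with them gave differences of at most 0.00695. The header of that block, per the file headers, gives other replicate numbers and another age than the labels; this was not resolved, and the probe columns were read by their sample labels. The log2 values deposited by the authors were normalised; the submitters' processing notes name lumi, with its version and steps not given in the sources used here.

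With limma 3.58.1 in R 4.3.3, normal-exponential background correction used the negative controls and an offset of 16; quantile normalisation and log2 followed. The 20632 probes with a detection p under 0.05 on at least 3 arrays were tested with lmFit and eBayes of limma, TG minus WT, two-sided, with Benjamini-Hochberg adjustment over all of them (threshold 0.05). A gene stands by its brightest tested probe. The number of arrays limits the precision.

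The members, gene lists, marker lists and alternatives were chosen with earlier results of these data known. Named genes were all members, up to 4 genes of each fixed list with the smallest p, the genes most like the members over the arrays, and Xist, Kdm5d and Uty; genes named beyond this rule (Col4a3, Col4a4, Col4a6, Pxdn, Serpinh1, Des and the markers) were chosen after their values were seen. Symbols came from the platform annotation (34885 of 45281 probes with 1 symbol, 18 with several, 10378 not named here). Promoter sequence came from RefSeq, build GRCm38.p6; no build is named in the files, so no probe positions are given.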

Additional observations from a re-analysis of the deposited data

How the results depend on the processing

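The count of member probes past the threshold stayed at 0 under every alternative run for it, and so did the count for the other basement membrane, receptor and assembly genes. Over all probes 0 passed, except that 2 did without TG replicate 1 (a range of 0 to 2 on leaving out 1 array): Xist and Kdm5d. The median log2 fold change of the members was 0.07 to 0.15. Same-numbered arrays of the groups share only a number: their deviations from the group means correlated at 0.262, 0.151 and -0.169. With the replicate block 0 probes passed, 789 had an unadjusted p under 0.05 against 710 without it, and the median of the members was 0.12. Col4a1 turned to -0.00086 with median scaling, -0.013 with cyclic loess and -0.0028 with array weights, where Lamb1 turned to -0.0202. With the Y-linked covariate (the mean of Kdm5d and Uty) Col4a1 was -0.013, Col4a2 -0.036, the second Lama4 probe -0.0788, the brightest Nid1 probe -0.0575, the second Hspg2 probe -0.0215 and Plod1 0.10. With the mean of a gene's probes Lamc1 was 0.0420. On leaving out 1 array, values of both signs were found for Col4a1 (-0.0611 to 0.11), Lama2 (-0.44 to 0.22), Lamb1 (-0.0853 to 0.0888), Lamb2 (-0.0063 to 0.30), the Lamc1 probes (-0.0851 to 0.0434 and -0.0319 to 0.22), the second Hspg2 probe (-0.0616 to 0.11), Itga7 (-0.35 to 0.0856), Adamts1 (-0.10 to 0.28) and Plod1 (-0.16 to 0.13). The cause was not tested. The brightest Lama4 probe, near background, was 0.08 to 0.47 over settings other than leaving out arrays.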
